A study of Mus musculus with 10 samples.

Results

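Genes that end the light response of photoreceptors, or tune it through calcium, were followed in whole mouse retina: Grk1, Rgs9, Rgs9bp, Gnb5, Rcvrn, Guca1a, Guca1b, Gucy2e, Gucy2f and Slc24a1. They were taken by symbol as a named set, and all 10 were found among the 57010 gene rows and passed the filter on low counts. RNA was sequenced from 10 mice, 5 injected into the vitreous with an adeno-associated virus (AAV) in the AAV2 capsid and 5 with one in the AAV206 capsid, both carrying green fluorescent protein (AAV2-GFP and AAV206-GFP). Mice of both groups entered the study at 6 to 8 weeks of age, and retinas were taken on day 14. The sources used here give no strain, sex or promoter of the transgene, and do not say whether a library held the retinas of more than 1 eye. No uninjected retina is analysed here, and the comparison is of one vector with the other.

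In a photoreceptor, light activates an opsin, the opsin activates the G protein transducin, and transducin switches on a phosphodiesterase that lowers cyclic GMP and closes cation channels. Recovery needs each step to be undone: an opsin kinase and arrestin silence the opsin, a complex of RGS9, its partner Gβ5 and the membrane anchor R9AP speeds the GTPase reaction of transducin, and guanylate cyclases make cyclic GMP again. Calcium falls in light because the channels close while an exchanger goes on pumping it out, and calcium-binding proteins turn this fall into faster recovery. Most photoreceptors of the mouse retina are rods.

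Of the 10 genes, 2 were higher with AAV206-GFP (Rgs9 and Gnb5), 1 was lower (Rcvrn) and 7 did not pass the test. The test was edgeR's quasi-likelihood test across all genes with a Benjamini-Hochberg adjusted p-value under 0.05, at which 11.2% of the 15539 tested genes passed, 5.95% as higher and 5.3% as lower. The median log2 fold change (AAV206-GFP over AAV2-GFP) was 0.05 over the 10 genes and -0.0095 over all tested genes. In 3 of the 10 genes the groups did not overlap, against 9.78% of all tested genes. Levels below are counts scaled to library size (CPM), given in the order of the replicate numbers 1 to 5.

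**Figure D1:**
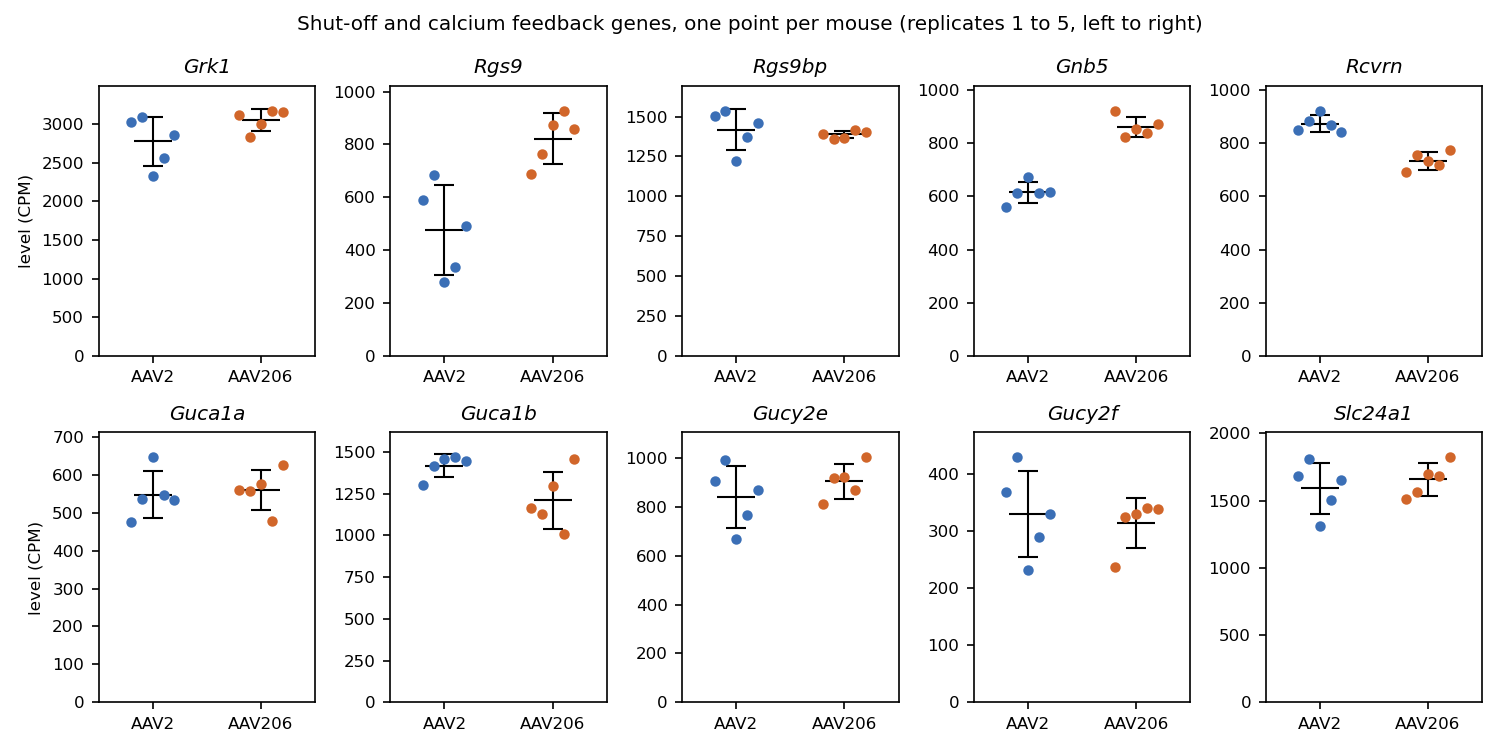
Level in CPM (vertical axes, each starting at 0) of each of the 10 genes in every mouse, with the mean and SD (n = 5) of each group. The 5 AAV206-GFP mice lie above all AAV2-GFP mice for Rgs9 (by little) and Gnb5, and below them for Rcvrn, while the groups overlap for the other genes.

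The libraries held 10989843 to 12752604 counts, and the defining rod markers were abundant (6 rod markers summed to 23535 to 25238 CPM with AAV2-GFP and 21980 to 25454 CPM with AAV206-GFP). In bulk tissue, fewer photoreceptors and less RNA per photoreceptor cannot be told apart. Of the 6 rod markers 1 passed as higher and none as lower, and of the 6 cone markers 2 passed as higher. Of 6 bipolar, 5 Müller glia and 5 ganglion cell markers, 1, 0 and 1 passed, each as lower. Of 4 tested markers of the retinal pigment epithelium, the adjoining layer, 1 passed as lower, and this list summed to 10.4 to 35.5 CPM with AAV2-GFP and 13.3 to 20.5 CPM with AAV206-GFP. No lymphocyte marker passed the filter on low counts (sums of 0.269 to 18.3 and 0.0848 to 0.776 CPM). Marker sums for interferon response (73.2 to 464 CPM with AAV2-GFP, 71.7 to 89.7 CPM with AAV206-GFP) and microglia (18.4 to 128 against 14.96 to 19.8 CPM) were highest in AAV2-GFP replicates 1 and 4 for interferon response and in replicate 1 for microglia. Lens markers summed to 10.2 to 31.5 CPM with AAV2-GFP and 0.182 to 10.3 CPM with AAV206-GFP, and blood markers to 67.8 to 85.8 and 100.6 to 319 CPM. Of the markers tested, 4 of 5 for interferon response, 1 of 4 for microglia and 2 of 2 for lens passed as lower and 4 of 5 for blood as higher, and no marker was at 0 in every library. The part of these tissues in the results below was not tested.

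The level of genes with long exons relative to those with short exons differed between libraries, and this trend touches several of the 10 genes. A long-gene index was computed for each library as the median log2 deviation of the protein-coding genes in the longest of 4 equal bins of exon length (at least 7419 bases) minus that of the shortest bin (at most 3160 bases). It was 0.0087, 0.043, -0.36, -0.16 and -0.016 in the AAV2-GFP mice and 0.036, 0.11, 0.085, 0.27 and 0.0053 in the AAV206-GFP mice. AAV2-GFP replicates 3 and 4 were the lowest and AAV206-GFP replicate 4 the highest, and the groups overlapped between 0.0053 and 0.043. From the shortest to the longest bin the median log2 fold change of these protein-coding genes ran -0.13, -0.04, 0.0087 and 0.07. Of the 2841 genes in the shortest bin 2.01% passed as higher and 11.9% as lower, and of the 2841 in the longest 11.2% and 2.11%.

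The complex that shuts off transducin held both genes that rose. Rgs9 (ENSMUSG00000020599, chr11:109225355-109298129, minus strand, GRCm38) encodes the protein that accelerates GTP hydrolysis by transducin. Its level was 591, 685, 281, 335 and 491 CPM with AAV2-GFP and 689, 764, 874, 928 and 857 CPM with AAV206-GFP. The groups met almost without a gap, and AAV2-GFP replicates 3 and 4 were the lowest of the 10 libraries. The group means were 477 ± 170 and 822 ± 95.4 CPM (SD of 5 mice), and the log2 fold change was 0.79 ± 0.18 (SE, edgeR adjusted p = 0.0132). Rgs9 stayed past the threshold in all 10 fits that left out 1 library (log2 fold change 0.65 to 0.95) and without AAV2-GFP replicates 3 and 4 (0.47, edgeR adjusted p = 0.0251). It was not past it with robust dispersions in edgeR (0.79, adjusted p = 0.0793) or with the long-gene index as a covariate (0.36, adjusted p = 0.154).

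Gnb5 (ENSMUSG00000032192, chr9:75306288-75345876, plus strand) encodes Gβ5, the obligate partner of RGS9 and of the related RGS proteins of bipolar cells and other neurons. Its level was 560, 612, 673, 612 and 618 CPM with AAV2-GFP and 923, 823, 855, 839 and 870 CPM with AAV206-GFP. Every AAV206-GFP mouse was above every AAV2-GFP mouse, with similar spread in both groups. Means were 615 ± 39.8 and 862 ± 38.3 CPM (SD of 5 mice), and the log2 fold change was 0.49 ± 0.06 (SE, edgeR adjusted p = 7.8e-05). It passed in each of the 23 alternative fits, with log2 fold changes of 0.44 to 0.57, and was 0.57 with the long-gene index as a covariate. Gnb5 carried decimals in 9 libraries, which estimated counts show where reads are shared, so its level is uncertain to that degree. An antisense gene, Gm19531, shares 248 exon bases with it and was at 2.66 to 5.89 CPM in all libraries.

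Rgs9bp (ENSMUSG00000056043, chr7:35578993-35585582, minus strand) encodes R9AP, which anchors the complex to the disc membrane. It did not follow the other 2 genes of the complex, at 1503, 1538, 1221, 1370 and 1460 CPM with AAV2-GFP and 1393, 1361, 1365, 1417 and 1404 CPM with AAV206-GFP. The AAV206-GFP mice all lay inside the range of the AAV2-GFP mice. The log2 fold change was -0.03 ± 0.06 (SE, edgeR adjusted p = 0.778). As a ratio of CPM within each library, Rgs9 to Rgs9bp was 0.230 to 0.446 with AAV2-GFP and 0.494 to 0.655 with AAV206-GFP, without overlap. The ratio of Rgs9 to Gnb5 was 0.418 to 1.12 and 0.746 to 1.11, with the groups overlapping. Those ratios compare libraries and not the abundance of one gene with another, and they were not tested.

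Because Rgs9 and Gnb5 both rose, the 250 bases before their RefSeq start sites (GRCm38.p6) are shown beside those of 2 calcium feedback genes that did not pass, Gucy2e and Guca1a. The table of promoters held 7 of the 10 genes; Rgs9bp, Rcvrn and Guca1b were not matched. Each sequence runs 5′ to 3′ towards the start site. Capitals mark TAATCC, the core letters bound by the photoreceptor homeodomain factor CRX, and TGCTGA, a half-site of the kind bound by the rod factor NRL, each read on both strands (GGATTA and TCAGCA are the opposite strand).
Rgs9 (chr11:109298182-109298431, minus strand): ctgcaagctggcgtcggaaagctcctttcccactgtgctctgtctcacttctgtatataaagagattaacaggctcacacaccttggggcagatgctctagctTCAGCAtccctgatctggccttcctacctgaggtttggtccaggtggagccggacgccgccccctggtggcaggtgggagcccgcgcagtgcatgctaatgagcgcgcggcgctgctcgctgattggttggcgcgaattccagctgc
Gnb5 (chr9:75306038-75306287, plus strand): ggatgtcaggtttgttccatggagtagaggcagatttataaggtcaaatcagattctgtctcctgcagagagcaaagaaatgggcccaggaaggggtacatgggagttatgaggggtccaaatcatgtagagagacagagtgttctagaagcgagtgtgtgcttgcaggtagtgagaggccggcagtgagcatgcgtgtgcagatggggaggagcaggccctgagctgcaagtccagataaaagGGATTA
Gucy2e (chr11:69237023-69237272, minus strand): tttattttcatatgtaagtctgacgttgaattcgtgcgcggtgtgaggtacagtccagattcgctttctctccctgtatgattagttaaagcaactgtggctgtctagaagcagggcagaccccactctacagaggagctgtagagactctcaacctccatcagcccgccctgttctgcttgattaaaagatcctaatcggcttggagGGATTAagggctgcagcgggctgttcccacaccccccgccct
Guca1a (chr17:47400607-47400856, minus strand): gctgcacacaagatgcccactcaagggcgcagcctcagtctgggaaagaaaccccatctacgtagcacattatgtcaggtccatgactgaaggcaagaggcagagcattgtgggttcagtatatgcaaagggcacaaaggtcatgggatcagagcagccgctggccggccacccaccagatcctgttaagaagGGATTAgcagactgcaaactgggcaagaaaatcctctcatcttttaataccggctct
TAATCC was found in 4 of the 7 windows and in 6.25% of all 32851 windows of this length, and TGCTGA in 1 of 7 and in 16.1%. The Gnb5 window ends in the letters GGATTA, 6 to 1 bases before the start, and Gucy2e and Guca1a hold them starting 42 and 57 bases before it. Rgs9 holds no TAATCC and has TCAGCA starting 147 bases before its start. Gucy2f holds TAATCC in both orientations, starting 59 and 84 bases before the start, and the windows of Grk1 and Slc24a1 hold neither motif. These matches describe letters only; the pair of genes that rose did not have the same motif in this window.

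Shut-off of the opsin itself was followed in Grk1 (ENSMUSG00000031450, chr8:13405081-13421951, plus strand), the kinase that phosphorylates light-activated opsin in rods and, in the mouse, in cones. Grk1 was at 3036, 3089, 2336, 2563 and 2867 CPM with AAV2-GFP and 3118, 2836, 2999, 3178 and 3153 CPM with AAV206-GFP. The 2 low AAV2-GFP libraries were replicates 3 and 4, and the other 3 lay within the AAV206-GFP range. The log2 fold change was 0.14 ± 0.07 (SE, edgeR adjusted p = 0.217), and it was 0.02 without those 2 libraries. The arrestins, which cap the phosphorylated opsin, did not pass either: Sag, the rod arrestin, had a log2 fold change of 0.02 (edgeR adjusted p = 0.816) and Arr3, the cone arrestin, 0.11 (edgeR adjusted p = 0.364).

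Among the calcium sensors, Rcvrn was lower with AAV206-GFP. Rcvrn (ENSMUSG00000020907, chr11:67695326-67703333, plus strand) encodes recoverin, which holds the GRK1 kinase inactive while calcium is high. Its level was 849, 884, 923, 869 and 842 CPM with AAV2-GFP and 690, 756, 733, 716 and 773 CPM with AAV206-GFP. All AAV206-GFP mice were below all AAV2-GFP mice, with similar spread in both groups. Means were 873 ± 32.5 and 734 ± 32.4 CPM (SD of 5 mice), and the log2 fold change was -0.25 ± 0.05 (SE, edgeR adjusted p = 0.00643). With the long-gene index as a covariate the value was -0.21 with an edgeR adjusted p of 0.0526, and it passed in each of the other 22 alternative fits.

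Rcvrn lies inside the span of Glp2r, a peptide hormone receptor gene on the opposite strand, whose annotated exons share 0 bases with it. Glp2r was at 95.97 to 120 CPM with AAV2-GFP and 348 to 540 CPM with AAV206-GFP (log2 fold change 2.04, edgeR adjusted p = 2.1e-08). The sources do not say whether counting used strand. The ratio of Grk1 to its inhibitor Rcvrn, in CPM within each library, was 3.58, 3.50, 2.53, 2.95 and 3.41 with AAV2-GFP and 4.52, 3.75, 4.09, 4.44 and 4.08 with AAV206-GFP. Every AAV206-GFP mouse had the higher ratio, which also sets a long gene against a short one.

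The guanylate cyclase activating proteins, which switch on the cyclases when calcium falls, are encoded by neighbouring genes on chromosome 17. Guca1a (ENSMUSG00000023982, chr17:47394558-47400584, minus strand) was at 475, 537, 646, 546 and 533 CPM with AAV2-GFP and 558, 558, 576, 478 and 627 CPM with AAV206-GFP. The groups overlapped over nearly their whole range (log2 fold change 0.03 ± 0.08, SE, edgeR adjusted p = 0.836). Guca1b (ENSMUSG00000023979, chr17:47385393-47392967, plus strand) was at 1302, 1414, 1455, 1470 and 1447 CPM with AAV2-GFP and 1162, 1127, 1294, 1011 and 1458 CPM with AAV206-GFP. In 4 AAV206-GFP mice Guca1b was below every AAV2-GFP mouse, and replicate 5 was below only the highest of them. Its log2 fold change of -0.23 ± 0.08 (SE) did not pass (edgeR adjusted p = 0.0787). Without AAV206-GFP replicate 5 it was -0.30 and passed (edgeR adjusted p = 0.0137), as it did with DESeq2 (-0.23, adjusted p = 0.0417) and limma-voom with sample weights (-0.24, adjusted p = 0.0346). Without AAV206-GFP replicate 4 it was -0.17 (edgeR adjusted p = 0.181), and with the long-gene index as a covariate -0.11 (edgeR adjusted p = 0.553).

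Taken as a ratio of CPM within each library, Guca1b to Guca1a was 2.74, 2.63, 2.25, 2.69 and 2.71 with AAV2-GFP and 2.08, 2.02, 2.25, 2.11 and 2.33 with AAV206-GFP. In 4 of 5 AAV2-GFP mice the ratio exceeded every AAV206-GFP value, and AAV2-GFP replicate 3 fell among them. This ratio was not tested.

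Neither guanylate cyclase passed. Gucy2e (ENSMUSG00000020890, chr11:69218117-69237036, minus strand), the cyclase of rods and cones, was at 904, 989, 668, 765 and 870 CPM with AAV2-GFP and 810, 917, 919, 869 and 1003 CPM with AAV206-GFP (log2 fold change 0.11 ± 0.09, SE, edgeR adjusted p = 0.466). Gucy2f (ENSMUSG00000042282, chrX:142081160-142196931, minus strand), the second photoreceptor cyclase, was at 368, 429, 231, 289 and 330 CPM with AAV2-GFP and 236, 324, 330, 341 and 338 CPM with AAV206-GFP. AAV2-GFP replicate 3 was the lowest of its group for both cyclases, and AAV206-GFP replicate 1 the lowest of its own. For Gucy2f the log2 fold change was -0.07 ± 0.14 (SE, edgeR adjusted p = 0.774), the widest error among the genes that did not pass.

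Calcium leaves the rod outer segment through the exchanger encoded by Slc24a1 (ENSMUSG00000034452, chr9:64922861-64951607, minus strand), which trades calcium and potassium for sodium. Slc24a1 was at 1683, 1808, 1308, 1501 and 1650 CPM with AAV2-GFP and 1513, 1566, 1700, 1681 and 1823 CPM with AAV206-GFP. Apart from the low AAV2-GFP replicate 3, the mice of both groups covered nearly the same range (log2 fold change 0.06 ± 0.08, SE, edgeR adjusted p = 0.661). Its relatives Slc24a2 and Slc24a4 had log2 fold changes of 0.22 and 0.07 that did not pass (edgeR adjusted p = 0.158 and 0.762).

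**Figure D2:**
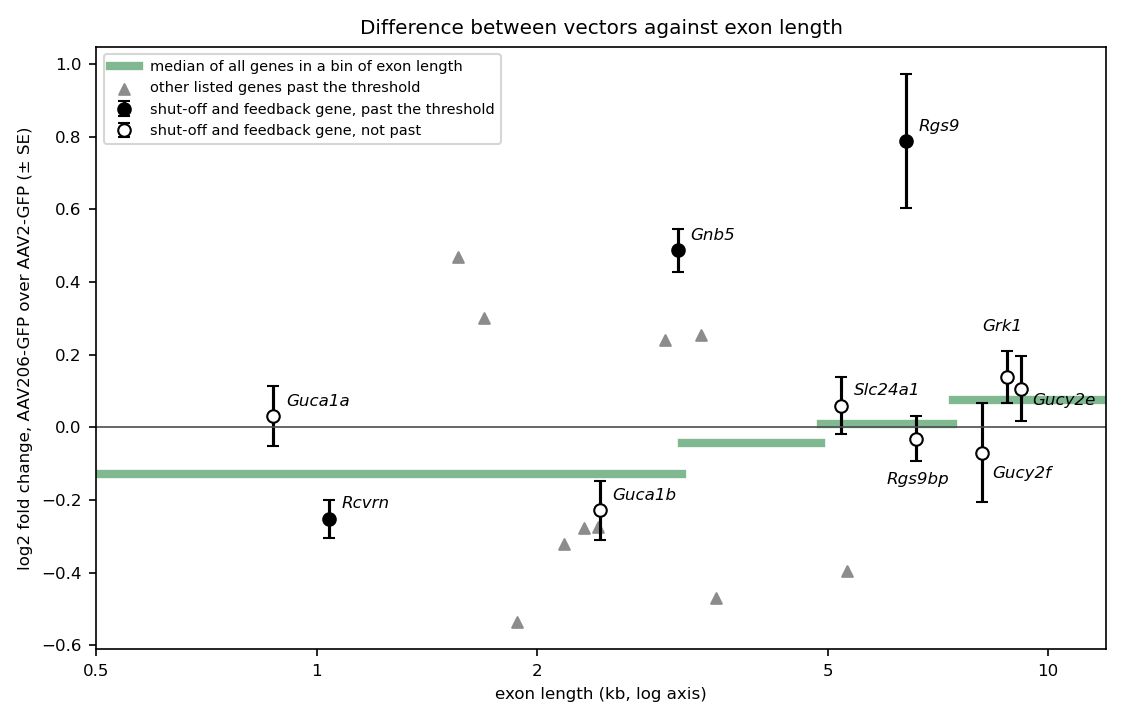
Log2 fold change between the vectors (vertical axis, with standard error) against exon length in kb (log axis) for the 10 genes and for 10 other listed genes past the threshold (triangles). Bars give the median of the protein-coding genes (mean of at least 5 CPM) in each bin of exon length. The bars rise from -0.13 to 0.07; Rgs9 and Gnb5 stand above the bar of their length and Rcvrn below its bar.

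With both groups pooled, and each gene centred on its group mean, the 10 genes split by exon length. Deviations of log2(CPM + 1) from the group mean were compared over the 10 mice, which share library depth and the length trend above, and are given as a description. Among the 6 genes with over 5 kb of exon (Slc24a1, Rgs9, Rgs9bp, Gucy2f, Grk1 and Gucy2e) all 15 pairs had a Pearson r of 0.73 to 0.96. The 6 pairs among the shorter genes (Guca1a, Rcvrn, Guca1b and Gnb5) had r of 0.17 to 0.77, and the 24 pairs that mix lengths had r of -0.74 to 0.15. All 6 longer genes had their lowest AAV2-GFP value in replicate 3 and their highest in replicate 2. With AAV206-GFP they ran less alike: Grk1 and Rgs9bp were lowest in replicate 2 and the other longer genes in replicate 1. In AAV206-GFP replicate 1 Gucy2e was at 810 CPM, its lowest in that group, while Grk1 was at 3118 CPM. The r values pool both groups and were not computed for AAV206-GFP alone. Gnb5 and Guca1a had their highest AAV2-GFP value in replicate 3 and their lowest in replicate 1.

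**Figure D3:**
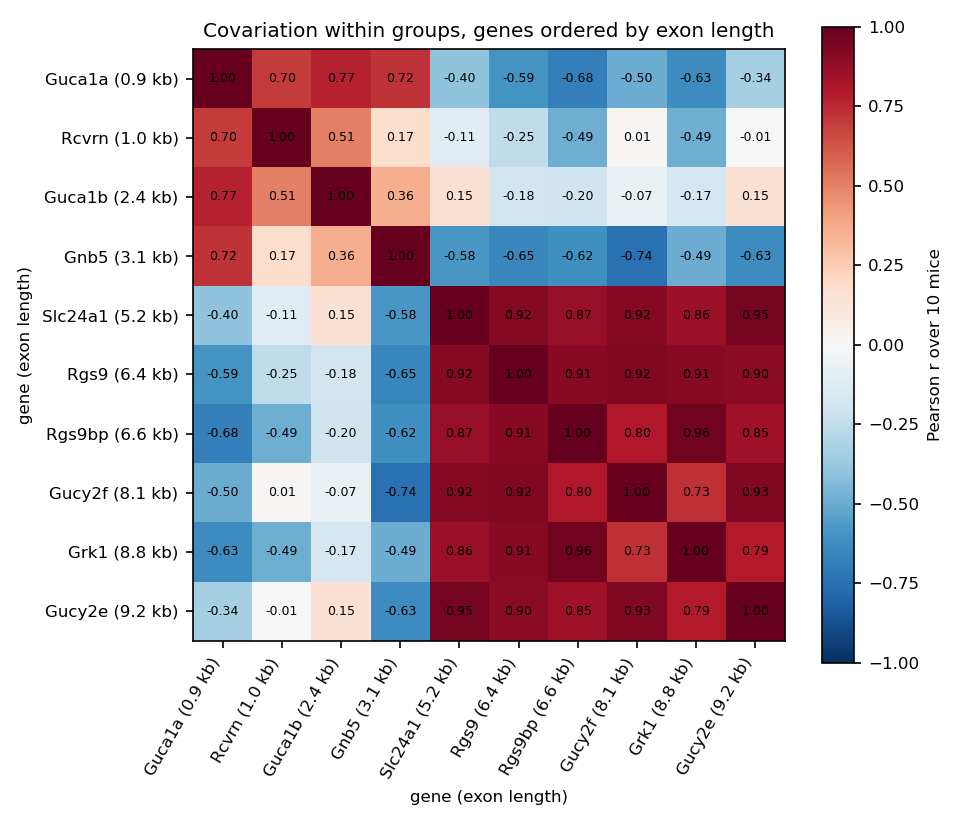
Pearson r between each pair of the 10 genes over 10 mice, from log2(CPM + 1) centred within each group, with genes ordered by exon length on both axes. The 6 longer genes form a block with r of 0.73 to 0.96, and Gnb5 is negative with every one of them.

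The r with the long-gene index, centred the same way and with both groups pooled, was 0.67 to 0.86 for the 6 longer genes and -0.88 to -0.52 for the 4 shorter ones. Not all longer genes followed the index with AAV206-GFP. There Gucy2e and Slc24a1 were highest (1003 and 1823 CPM) in replicate 5, which had the lowest index of that group (0.0053). Grk1, Rgs9, Rgs9bp and Gucy2f were highest in replicate 4, which had the highest index (0.27). Rgs9 (r = 0.86) followed the index closely and also had the widest range of the 10 genes within AAV2-GFP on the log2 scale. Gnb5 had r = -0.72 with the index and Rcvrn r = -0.52. The mean index was 0.101 ± 0.102 with AAV206-GFP and -0.0978 ± 0.167 with AAV2-GFP (SD, n = 5). Because the index was drawn from the same libraries and its means differed between the groups, the covariate fits cannot tell its part from that of the vector.

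**Figure D4:**
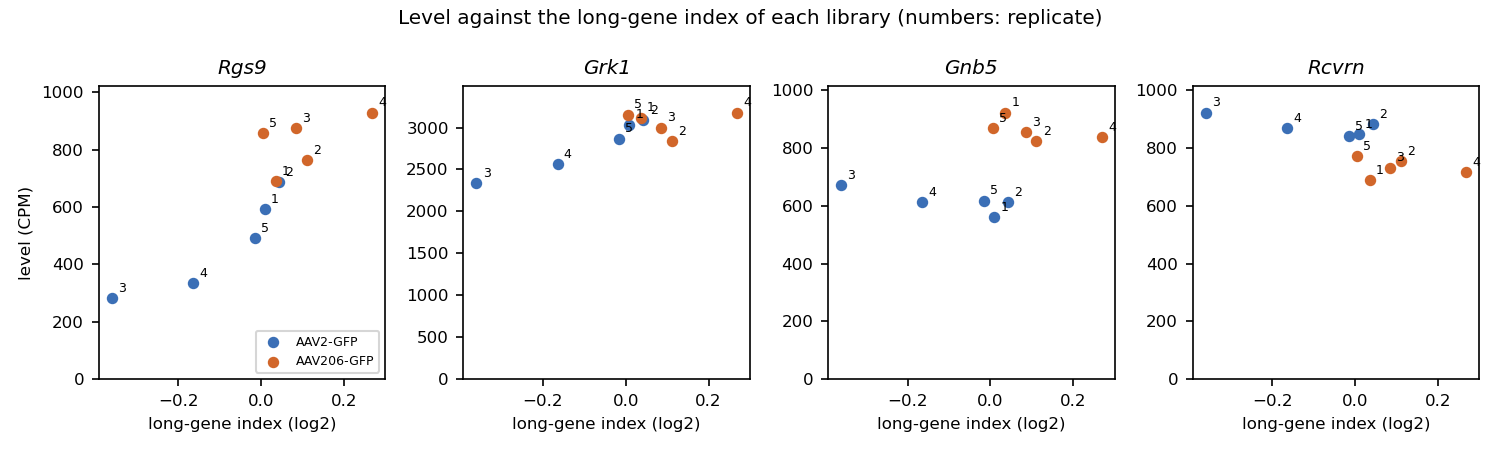
Level in CPM (vertical axes, from 0) of Rgs9, Grk1, Gnb5 and Rcvrn against the long-gene index (log2) of each library, with replicate numbers beside the points. Rgs9 and Grk1 are lowest in the 2 AAV2-GFP libraries with the lowest index, and the groups are apart for Rgs9 (by little), Gnb5 and Rcvrn and overlap for Grk1.

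The mean standardised profile of the 10 genes within groups pools 6 longer and 4 shorter genes, whose mixed pairs had r of -0.74 to 0.15. Likeness to this mean is not likeness to each of the 10 genes. By this measure the 5 most similar other genes were Lrguk, Gpr152, Eef2kmt, Lrp4 and Rp1l1. Their Pearson r over 10 mice lay between 0.933 and 0.941 and their Spearman coefficients between 0.818 and 0.939. Of these, Gpr152 passed between the vectors, as lower (log2 fold change -0.26, edgeR adjusted p = 0.0426), and the other 4 had log2 fold changes of 0.06 to 0.32 that did not pass. Gpr152 was past the threshold in 2 of 10 fits with 1 library removed (AAV2-GFP replicate 3 or AAV206-GFP replicate 5).

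Levels of different genes were compared per kb of exon. Rcvrn was the most abundant at 840 ± 31.2 and 705 ± 31.2 CPM per kb in AAV2-GFP and AAV206-GFP mice (SD, n = 5), and it overlapped Guca1a in AAV206-GFP but not in AAV2-GFP. Guca1a (627 ± 70.9 and 641 ± 61.2) and Guca1b (581 ± 27.8 and 496 ± 70.1) followed and overlapped each other in both groups. Grk1 (316 ± 36.6 and 348 ± 16.1) and Slc24a1 (305 ± 36.8 and 318 ± 23.3) came next and also overlapped.

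The remaining genes had lower means. With AAV206-GFP Gnb5 (264 to 296 CPM per kb) still overlapped Slc24a1 (290 to 350 CPM per kb). Rgs9bp was at 215 ± 19.3 and 211 ± 3.70 CPM per kb and Gnb5 at 197 ± 12.8 and 277 ± 12.3 (SD, n = 5). These 2 genes overlapped with AAV2-GFP but not with AAV206-GFP, where Gnb5 was the higher. Gucy2e (91.2 ± 13.6 and 98.2 ± 7.73) and Rgs9 (74.6 ± 26.6 and 129 ± 14.9) overlapped in both groups. With AAV2-GFP they covered 72.7 to 107.5 and 44.0 to 107.3 CPM per kb. With AAV206-GFP Rgs9 had the higher mean, and its lowest value (107.8) was below the highest Gucy2e value (109.0). Gucy2f was the lowest at 40.6 ± 9.26 and 38.7 ± 5.40, overlapping Rgs9 in AAV2-GFP but not in AAV206-GFP.

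**Figure D5:**
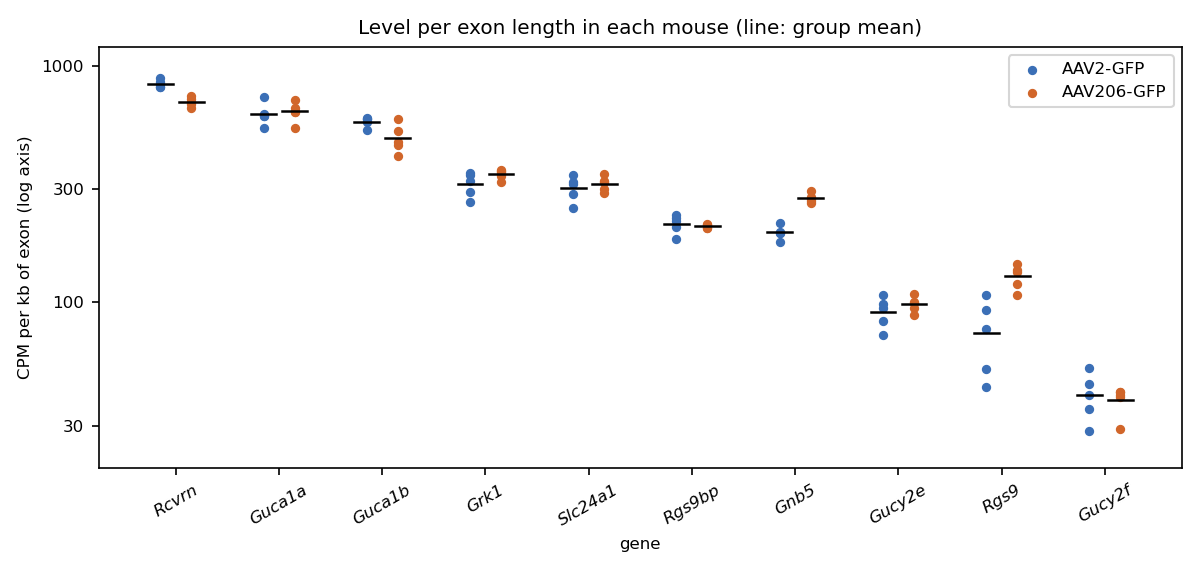
Level of each gene in CPM per kb of exon (log axis) in every mouse, with group means as lines, ordered by the AAV2-GFP mean. Rcvrn is highest and Gucy2f lowest in both groups, and Gnb5 and Rgs9 move up in AAV206-GFP.

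The rest of the phototransduction machinery and relatives of the 10 genes were read from 8 lists with 67 genes, of which 64 were tested. In all 10 of the 64 passed, 4 higher and 6 lower, against 11.2% of all tested genes (5.95% as higher and 5.3% as lower). The median log2 fold change was -0.04. In the rod cascade 2 of 8 genes fell and none rose. The rod transducin γ subunit gene Gngt1 (-0.47) and Pde6g (-0.28), the inhibitory subunit of the rod phosphodiesterase, fell (edgeR adjusted p = 0.00387 and 0.0244). Neither passed with the long-gene index as a covariate (-0.26 and -0.12, edgeR adjusted p = 0.0655 and 0.333).

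In the cone cascade 2 of 9 genes rose and 1 fell. Opn1mw, the medium-wavelength opsin (log2 fold change 0.47), and Gnat2, the cone transducin α subunit (0.24), rose (edgeR adjusted p = 0.000881 and 0.0123). The cone γ subunit gene Gngt2 fell by 0.53 on the log2 scale (edgeR adjusted p = 0.00902).

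Among arrestins and partners of these proteins 1 of 14 genes rose and 3 fell. Rd3, which carries guanylate cyclase to the outer segment and inhibits it on the way, fell from 267 ± 25.4 to 203 ± 22.5 CPM (SD, n = 5; log2 fold change -0.40, edgeR adjusted p = 0.00611), with no overlap and decimals in all libraries. Pdc, phosducin, which binds transducin βγ, rose (0.25, edgeR adjusted p = 0.0217), and Pde6d, a prenyl-binding chaperone, and Calm3, a calmodulin gene, fell (-0.32 and -0.27, edgeR adjusted p = 0.0414 and 0.0412).

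Close relatives of the 10 genes were read from the other 5 lists. Of 10 recoverin relatives 1 rose, Hpcal1, a neuronal calcium sensor (log2 fold change 0.30, edgeR adjusted p = 0.0252). None passed among 6 genes of the other R7 RGS complexes, which share Gβ5 (1 at an unadjusted p under 0.05, log2 fold changes -0.13 to 0.15). None passed among 5 tested guanylate cyclases (0 unadjusted), 7 sodium-calcium exchangers (1) and 5 other G protein-coupled receptor kinases (3). With DESeq2 14 of the 64 genes passed, against 10 with edgeR, and over all 15539 genes 2254 passed, against 1747.

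Several of these calls were lost when any of several libraries was left out, while the log2 fold changes kept their direction (Pdc 0.22 to 0.30, Pde6g -0.32 to -0.22, Hpcal1 0.24 to 0.34, Calm3 -0.33 to -0.22 and Pde6d -0.38 to -0.25 over these fits). Pdc was lost without AAV2-GFP replicate 4 or 5 or AAV206-GFP replicate 2 or 3, and Pde6g without AAV2-GFP replicate 4 or AAV206-GFP replicate 2, 3 or 4. Hpcal1 was lost without AAV2-GFP replicate 3 or 4 or AAV206-GFP replicate 2, 4 or 5. In the fits with 1 library removed, Calm3 passed only without AAV2-GFP replicate 1 or 2 or AAV206-GFP replicate 3 or 5, and Pde6d only without AAV2-GFP replicate 1 or 2 or AAV206-GFP replicate 5. The edgeR adjusted p-values in the fits that lost these calls reached at most 0.103. With the long-gene index as a covariate 2 of the 64 genes passed, Opn1mw and Pdc.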

How the data were processed

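RNA was measured in 10 retina libraries, assigned to groups and replicate numbers by their titles. Per the submitters' processing notes, STAR 2.7.10b and RSEM 1.3.1 were used with the build mm10; the annotation is not given in the sources used here. The authors deposited expected counts (estimated counts per gene, unscaled), of which 15.7% of the values above 0 carried decimals; these were rounded before modelling. GENCODE M21 (GRCm38) named 52081 of 57010 rows and gave positions and exon lengths (the union of a gene's exons, which overstates the length of genes with several isoforms).

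Differences were fitted with edgeR 4.0.16 in R 4.3.3: filterByExpr (minimum count 10), TMM factors, no covariates, all 10 libraries, Benjamini-Hochberg adjustment over 15539 genes. Standard errors are |log2 fold change| / √F. Alternatives used DESeq2 1.42.0, limma 3.58.1, other scaling, filters, a replicate block and fewer libraries; the fits with the long-gene index, and without AAV2-GFP replicates 3 and 4, were added after the data were seen. The gene set and lists were chosen with earlier results of these data known; 1 listed gene is not reported here. Named genes were the 10 genes, listed genes past the threshold, and the 5 most similar profiles (mean of at least 5 CPM). Sag, Arr3, Slc24a2, Slc24a4 and Glp2r were added after their values were seen. Libraries of a group differed by 3.61 to 21.3 chi-square per degree of freedom, so none was a duplicate. At this depth 3 counts equal 0.235 to 0.273 CPM, which covers counting error only. P-values set the difference between the groups against the spread between these libraries.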

Additional observations from a re-analysis of the deposited data

Results flagged for a closer look

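Within each group of 5, the gap of the highest or lowest mouse to its nearest neighbour was divided by the whole range of that group (Dixon's ratio, critical value 0.71). Over 40 group results, 2 exceeded it, and 2.0 would by chance at 1 in 20. Gucy2f was 236 CPM in AAV206-GFP replicate 1, while the other 4 mice lay between 324 and 341 CPM (ratio 0.837). Hpcal1 was 44.2 CPM in AAV2-GFP replicate 3, while the other 4 lay between 53.0 and 56.0 CPM (ratio 0.743).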

How the results depend on the processing

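The 3 called genes of the 10 (Rgs9, Gnb5, Rcvrn) passed in every fit that left out a library, with 3 to 4 of the 10 genes called; the fourth was Guca1b. With the long-gene index as a covariate 1 of the 10 passed (Gnb5), 2 of the other listed genes and 536 of all genes. Without AAV2-GFP replicates 3 and 4 these counts were 3, 3 and 708, and without replicates 1 and 4 they were 3, 7 and 985 (from 3, 10 and 1747). Leaving out 1 library gave 991 to 1912 calls over all genes and 5 to 11 over the other lists, lowest without AAV2-GFP replicate 4 and AAV206-GFP replicate 2 (5 each) and AAV206-GFP replicate 4 (6; 1056 over all genes). The replicate number as a block gave 1085 calls, with Rgs9, Gnb5 and Rcvrn among them; same-numbered libraries correlated at -0.052 to 0.041 and in 0 of 5 cases best with their own number, so the numbers were not taken as pairs. Signs near 0 turned, none of them past the threshold, in Guca1a (-0.015 to 0.097 over the fits without 1 library, negative without AAV2-GFP replicate 1 or AAV206-GFP replicate 5, and -0.039 without AAV2-GFP replicates 1 and 4), Gucy2f (-0.17 to 0.043, positive without AAV2-GFP replicate 2 or AAV206-GFP replicate 1) and Slc24a1 (-0.0042 without AAV2-GFP replicate 3, up to 0.11). With the long-gene index Grk1 was -0.0024, Gucy2e -0.048, Slc24a1 -0.080, Gucy2f -0.37 (edgeR adjusted p = 0.0894), Guca1a 0.22 (0.0734) and Rgs9bp -0.15 (0.162), and without AAV2-GFP replicates 3 and 4 Gucy2e was -0.035 and Slc24a1 -0.056. The cause of these shifts was not tested.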
